A study of Mus musculus with 8 samples.

Results

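The 10 genes described here carry glucose into the cell, break it down to pyruvate and lactate, or encode the factor that regulates this pathway when oxygen is low. They are Slc2a1, Slc2a3, Hk1, Hk2, Pfkl, Pfkp, Pkm, Ldha, Pdk1 and Hif1a, 10 of 19556 protein-coding genes of at least 1 kb in the RefSeq annotation of the mouse genome GRCm38. Around each gene, every ATAC-seq peak that overlapped the gene body or the 50 kb on either side of it was taken. The genes were chosen by name with earlier results of the same peak lists in view, gene body coverage and the wide peak at Slc2a1 among them, so every value below is a description and none carries a test. In ATAC-seq the transposase Tn5 cuts DNA that is not packed away, and a peak marks a stretch where the cuts accumulate. The tissue was lens of CD1 mice, an outbred strain, with no transgene, deletion or treatment named, microdissected into epithelium and fiber at the embryonic stage E14.5 and at the newborn stage P0.5. There were 4 groups of 2 libraries each (8 in all), and the authors pooled the 2 libraries of a group before they called its peaks, without a control library that the methods name. A pooled list gives neither reads nor a value per library. No standard deviation, replicate check or p-value could therefore be given, and the sequencing depth behind a peak is not known from the lists. Each list comes from dissected tissue in bulk, in which fewer cells with open chromatin and less signal per cell cannot be told apart. The methods name more cells per sample at P0.5 than at E14.5, and at P0.5 more epithelial than fiber cells, for the same amount of transposase. Cell input and stage therefore cannot be told apart, nor cell input and tissue at P0.5.

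Glucose enters cells through facilitative transporters of the Slc2a family, is trapped by hexokinases, committed to breakdown by phosphofructokinases and converted to pyruvate by pyruvate kinase. Lactate dehydrogenase turns pyruvate into lactate, and pyruvate dehydrogenase kinase inhibits the mitochondrial enzyme that turns pyruvate into acetyl-CoA. The adult lens has no blood vessels of its own, lies in fluid poor in oxygen and draws much of its energy from glycolysis. Lens fibers lose their mitochondria as they mature. HIF1α, the protein of Hif1a, is degraded where oxygen is plentiful and otherwise binds a short DNA word, ACGTG or GCGTG (the hypoxia response element core), at genes of this pathway.

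E14.5 epithelium had 100003 peaks, E14.5 fiber 123743, P0.5 epithelium 58592 and P0.5 fiber 62995, which covered 38.3, 61.3, 20.3 and 18.5 Mb. Where values of the 4 lists are given without names below, they follow this order. Lens fiber markers (8 genes, among them Mip, Cryba1 and Crybb1) had a median of 87.3% of their gene bodies inside peaks in E14.5 fiber against 6.08% in E14.5 epithelium. At P0.5 the medians were 10.3% in fiber and 1.64% in epithelium. The medians of the lens epithelium markers (4 genes) did not set the epithelium apart, at 27.4%, 43.8%, 10.8% and 10.9%. At E14.5 Cdh1 alone was higher in epithelium (9.28% against 5.99%). At P0.5 Foxe3 (67.3% against 56.9%), Pax6 (17.2% against 16.1%) and Cdh1 (3.27% against 0.277%) were higher in epithelium. Pdgfra was lower there (4.33% against 5.76%). Markers of endothelium (4 genes) stayed at or under 3.04% in every list. Of the neural retina markers, Crx was at 0 in all 4 lists and Rax reached 26.7%, and the 2 blood and macrophage markers that were found reached 3.28%. The part of other cell types in the values below was not tested.

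Slc2a1, which encodes the transporter GLUT1, had the most open gene body of the 10 genes at E14.5. Peaks covered 59.7% of its gene body in E14.5 epithelium, 90.5% in E14.5 fiber, and, at P0.5, 5.38% in epithelium and 5.84% in fiber. The E14.5 values were both far above the P0.5 values, and the fiber value was the higher at E14.5 by 30.7 points. In E14.5 fiber 99.6% of all genes were less covered, and in E14.5 epithelium 98.8%, while at P0.5 the shares were 80.4% in fiber and 81.4% in epithelium. The difference between the stages (P0.5 minus E14.5) was -84.6 points in fiber and -54.4 points in epithelium. Ordered from the most negative difference, Slc2a1 took place 9 of 19556 genes in fiber and place 27 in epithelium. A gene body lay inside peaks over 50% or more of its length for 1 of the 10 genes, Slc2a1, in E14.5 epithelium (1.92% of all genes) and in E14.5 fiber (3.77%), and for 0 of 10 at P0.5 in epithelium (0.353%) and fiber (0.542%). The P0.5 values of Slc2a1 were still above the medians of all genes, which were 2.55%, 4.06%, 1.39% and 1.29% in the 4 lists.

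**Figure D1:**
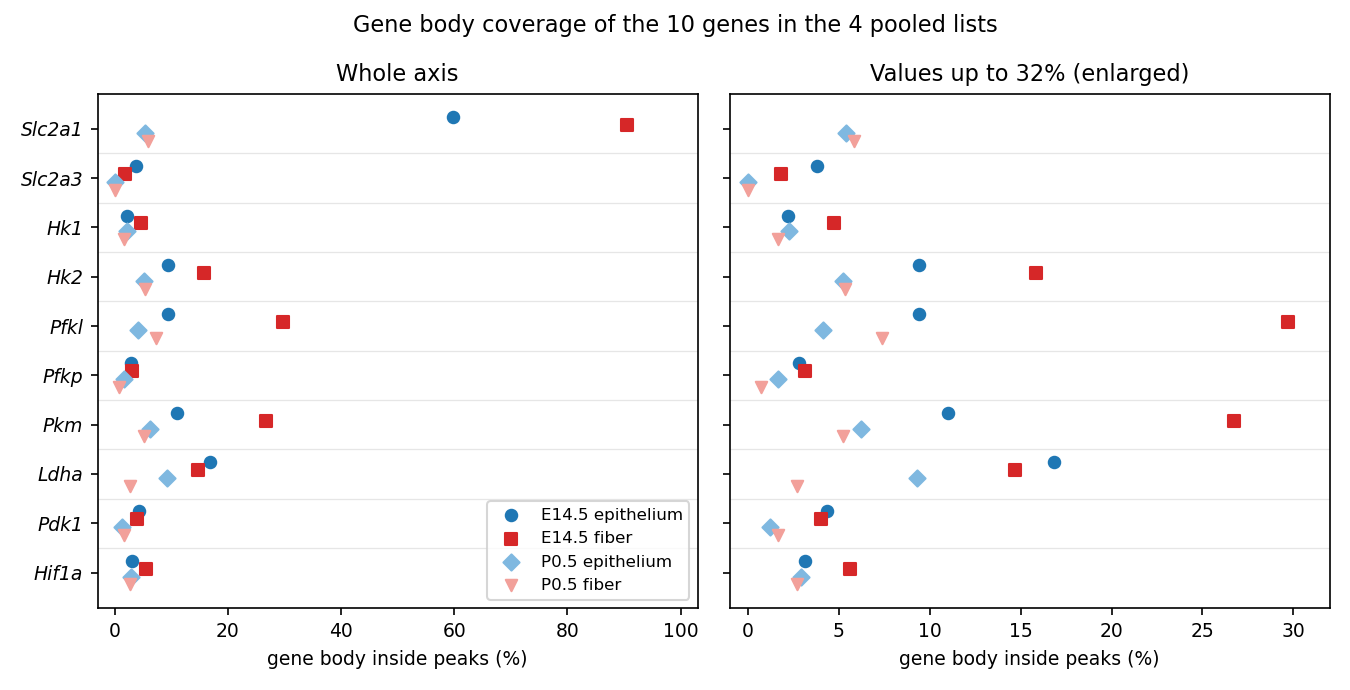
Share of each gene body inside peaks (x axis, %) for the 10 genes (rows) in the 4 pooled lists (symbols). The left panel shows the whole axis and the right panel enlarges values up to 32%. Slc2a1 alone lies above 50%, at 90.5% in E14.5 fiber and 59.7% in E14.5 epithelium.

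Coverage depends on gene length, since a promoter peak alone fills a short gene. Slc2a1 spans 28.6 kb (chr4:119108745-119137330, plus strand), and it was the most covered of all 9493 genes of at least 20 kb in both E14.5 lists, a length limit that was chosen after the values were seen. Of these long genes, 36 were covered over at least 50% of their length in E14.5 fiber and 1, Slc2a1 itself, in E14.5 epithelium. Without the first 2 kb of the gene the coverage was 91.4% in E14.5 fiber and 60.3% in E14.5 epithelium, and at P0.5 it was 3.23% in epithelium and 4.25% in fiber. When only peaks of q below 0.001 were kept, the P0.5 values were 3.74% in fiber and 4.93% in epithelium, so the order of the tissues at P0.5 turned. The genes with the most similar coverage over the 4 lists were Cnih2 (distance 12.2 points), Fuz (15.7 points) and Ndufa4l2 (21.7 points), which are all shorter, at 5654, 4546 and 2216 bp.

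**Figure D2:**
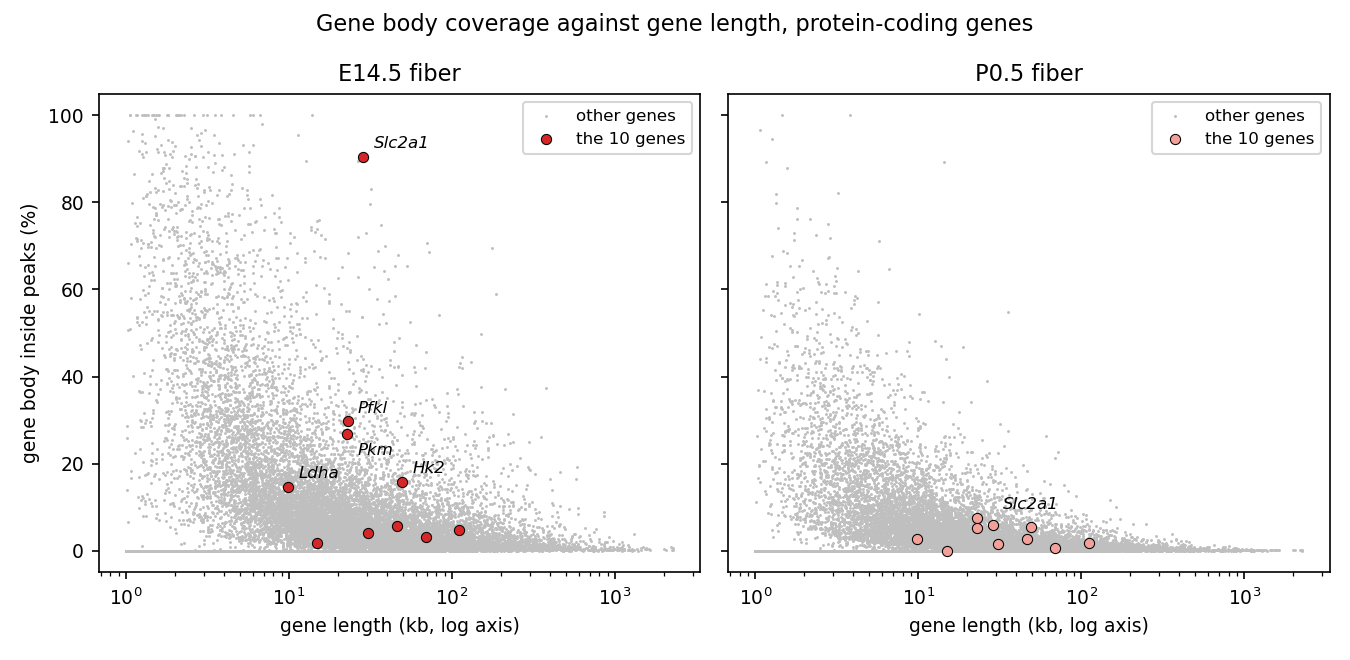
Share of the gene body inside peaks (y axis, %) against gene length (x axis, kb, log scale) for every protein-coding gene (grey) and the 10 genes (coloured) in E14.5 fiber and P0.5 fiber. Slc2a1 is the highest point right of 20 kb in E14.5 fiber, at 90.5%, and lies at 5.84% in P0.5 fiber.

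The open chromatin of Slc2a1 lay over introns as well as exons. In E14.5 fiber the covered share was 86.6% of the exon bases and 90.9% of the intron bases, and in E14.5 epithelium 84.7% and 57.3%. At P0.5 it was 10.1% of exon bases and 4.91% of intron bases in epithelium, and 12.8% and 5.14% in fiber. The exons of Slc2a1 were therefore the more covered part in 3 lists, and the introns in E14.5 fiber. At P0.5, however, peaks touched only 2 of its 10 exons in each tissue. The first exon is among them and lies wholly under the promoter peak. The P0.5 exon shares thus include the promoter and do not describe the exons in general. At E14.5 peaks touched 9 exons in epithelium and 10 in fiber. Both flanks were less covered than the gene. In E14.5 fiber 16.9% of the 50 kb upstream and 10.1% of the 50 kb downstream lay inside peaks, and in E14.5 epithelium 12.8% and 11.0%. At P0.5 no flank exceeded 3.75%.

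**Figure D3:**
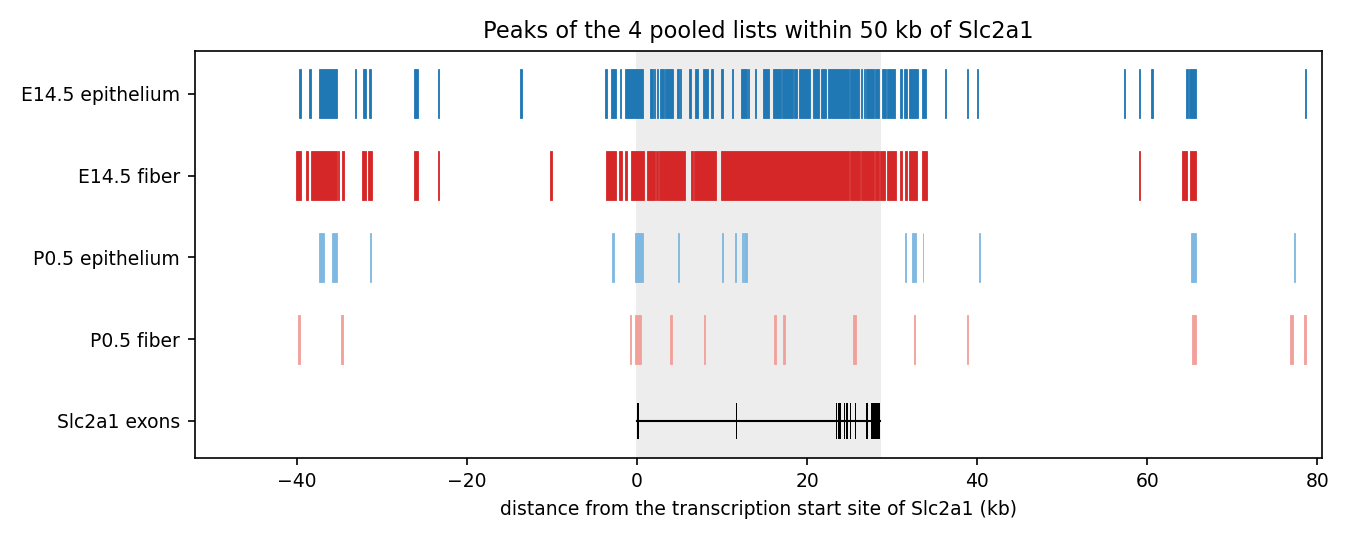
Peaks of the 4 pooled lists (rows, coloured boxes) within 50 kb of Slc2a1, by distance from its transcription start site (x axis, kb), with the exons in black and the gene body shaded. In E14.5 fiber the gene body is filled by few wide peaks, in E14.5 epithelium by many narrow ones, and at P0.5 separate narrow peaks are left.

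The 2 E14.5 lists filled the gene in different ways. In E14.5 fiber 11 peaks lay over the gene body, and the widest measured 15066 bp (chr4:119118575-119133640), the third widest of the 123743 peaks of its list. In E14.5 epithelium 30 peaks lay over it, none wider than 2490 bp. At P0.5 there were 6 in each tissue. Fold enrichment, the reads at a summit over the local background, was ranked within each list with rank 1 for the highest, and the rank is given as a percent of the list. By this measure the widest peak was not among the strongest, with rank 16184 (13.1%). Its summit lay in an intron, 21.1 kb from the start site, and 36.5% of the 200 bases around it are annotated repeat. The peak also covered the whole of Gm12867, a non-coding gene inside Slc2a1 on the other strand, and the signal of the 2 genes cannot be told apart there. These bases, from GRCm38 and on the plus strand, are shown because they mark the summit of the widest peak of the whole gene set, and they hold neither the hypoxia response element core nor the Maf (TGCTGA) and Tead (GGAATG) consensus on either strand:
chr4:119129731-119129930: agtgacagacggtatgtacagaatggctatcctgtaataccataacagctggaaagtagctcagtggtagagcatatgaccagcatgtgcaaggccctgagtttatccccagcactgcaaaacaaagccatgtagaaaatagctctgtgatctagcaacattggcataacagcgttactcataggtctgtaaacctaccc

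The promoters of 9 of the 10 genes were open in every list. A promoter peak, which overlaps 2 kb on either side of a curated transcription start site, was found for 10 of 10 genes in both E14.5 lists and for 9 of 10 in both P0.5 lists, where Slc2a3 had none. With equal numbers of peaks the count was 9 in both E14.5 lists. In E14.5 fiber it was also 9 with only peaks of q below 0.001 kept, or with promoters within 1 kb. With predicted transcripts included, Slc2a3 had a promoter peak in every list and the count was 10 of 10 at P0.5 as well. In P0.5 fiber no base of the curated Slc2a3 gene body or of the 50 kb upstream lay inside a peak. There the peak at the predicted start site thus lies outside both. Among all genes the shares were 74.8% in E14.5 epithelium, 75.7% in E14.5 fiber, and, at P0.5, 71.3% in epithelium and 68.8% in fiber, and 64.7% had a promoter peak in all 4. The best promoter peak was in the strongest 10% of its list for 9 genes in E14.5 epithelium (44.7% of all genes), 9 in E14.5 fiber (50.6%) and, at P0.5, 9 in epithelium (29.6%) and 8 in fiber (32.3%). In P0.5 fiber Pkm lay outside this limit as well as Slc2a3, at 12.6%, and the number of genes inside it became 5 when only peaks of q below 0.001 were kept. A list with many weak peaks makes the percent smaller, and small gaps between the lists are given as values only.

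**Figure D4:**
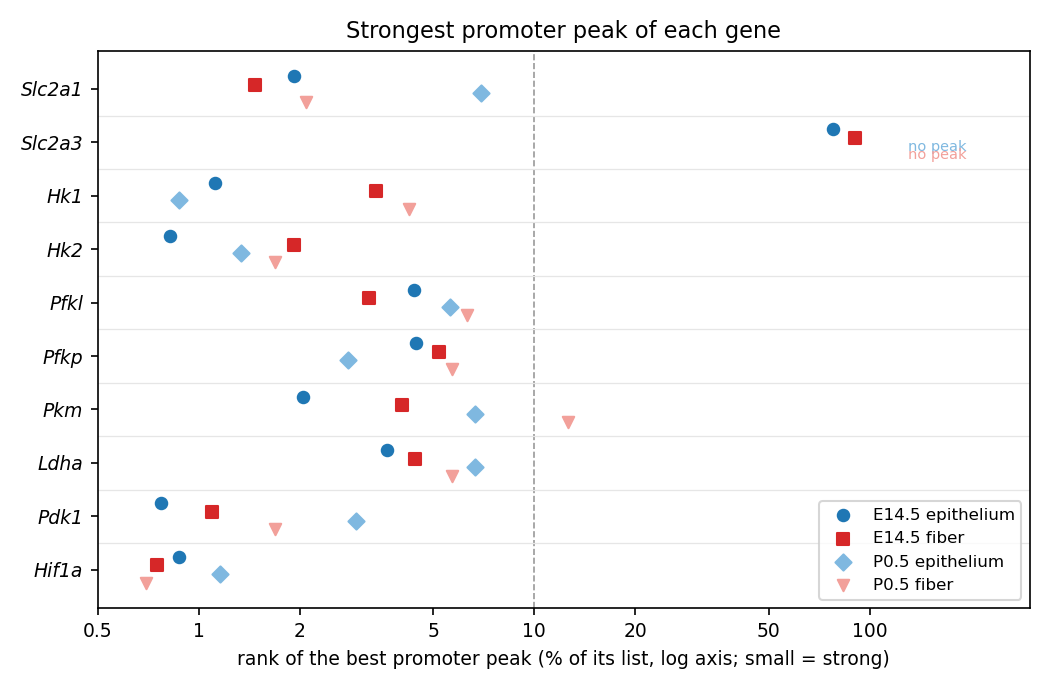
Rank of the best promoter peak of each gene (rows) as a percent of its list (x axis, log scale, small values are strong peaks) in the 4 pooled lists (symbols), with the strongest 10% left of the dashed line. The values of Hif1a lie between 0.697% and 1.16%, while Slc2a3 lies at 77.7% and 90.1% at E14.5 and has no promoter peak at P0.5.

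Of 13 start sites of the genes with a RefSeq promoter entry, 10 lay inside a peak in all 4 lists. At 9 of these 10 the 250 bases upstream held ACGTG or GCGTG on either strand, the letters of the hypoxia response element core. The 10 start sites belong to 9 genes, since Pkm has 2, and Slc2a3 has no entry. In 6 of the 10 there were at least 2 such sites. Overlapping matches on the 2 strands were counted as 1 site. Among 19249 promoters of all genes, open or not, 47.0% held at least 1 site and 18.4% at least 2, and of the 13 entries of the 9 genes, open or not, 10 held at least 1. Around the summits of the best promoter peaks (200 bases), a site was found for 8 of 10 genes in E14.5 epithelium (55.9% of the best promoter peaks of all genes), 7 of 10 in E14.5 fiber (55.5%) and, at P0.5, 7 of 9 in epithelium (56.4%) and 5 of 9 in fiber (56.6%). The share of the genes was thus above that of all genes in 3 lists and not in P0.5 fiber, with 9 or 10 genes in each. The median share of G and C was 65.2% in the 10 open promoters and 62.8% in all 13 entries of the 9 genes, open or not. It was 56.8% in all promoters, open or not. A match is a description of the letters only. The 150 bases before the start site (RefSeq, GRCm38.p6, written 5′ to 3′ on the strand of the gene) are shown for 6 of the 9 genes, from uptake to regulation, with ACGTG or GCGTG on either strand in capitals. The start site of Pkm shown is the open one without a site:
Slc2a1, chr4:119108595-119108744, plus strand: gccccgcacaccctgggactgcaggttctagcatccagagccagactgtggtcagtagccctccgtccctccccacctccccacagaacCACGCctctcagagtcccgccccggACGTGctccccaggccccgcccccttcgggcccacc
Hk2, chr6:82774455-82774604, minus strand: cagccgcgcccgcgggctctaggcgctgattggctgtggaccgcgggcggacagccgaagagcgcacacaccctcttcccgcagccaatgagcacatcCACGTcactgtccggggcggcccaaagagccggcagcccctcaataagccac
Ldha, chr7:46845654-46845803, plus strand: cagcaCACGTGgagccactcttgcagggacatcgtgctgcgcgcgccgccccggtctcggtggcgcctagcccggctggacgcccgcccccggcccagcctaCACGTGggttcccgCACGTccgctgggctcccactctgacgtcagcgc
Pkm, chr9:59656426-59656575, plus strand: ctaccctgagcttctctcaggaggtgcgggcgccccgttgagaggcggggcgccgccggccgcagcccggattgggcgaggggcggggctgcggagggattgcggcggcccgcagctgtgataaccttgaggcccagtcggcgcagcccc
Pdk1, chr2:71873074-71873223, plus strand: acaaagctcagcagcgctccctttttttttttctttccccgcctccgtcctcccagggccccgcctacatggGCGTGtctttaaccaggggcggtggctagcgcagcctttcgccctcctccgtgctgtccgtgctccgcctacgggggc
Hif1a, chr12:73907717-73907866, plus strand: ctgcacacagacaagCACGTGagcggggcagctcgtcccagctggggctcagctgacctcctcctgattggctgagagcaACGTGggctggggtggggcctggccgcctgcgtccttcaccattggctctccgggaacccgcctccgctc

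In these sequences, the sites of Ldha start at -145, -48 and -34 from the start site, those of Hif1a at -135 and -70, and those of Slc2a1 at -61 and -36, while Hk2 and Pdk1 hold a single site each, at -52 and -78. The Maf consensus TGCTGA was found in 1 of the 10 open promoters, that of Pdk1, against 14.9% of all promoters. The Tead consensus GGAATG was found in 0 of 10, against 11.6%.

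The promoter of Slc2a1 ranked at 1.92% in E14.5 epithelium, 1.47% in E14.5 fiber, and, at P0.5, 6.94% in epithelium and 2.09% in fiber. Its strong promoter peak was thus present in every list, with the summit within 82 bp of the start site. The strongest peak of the surrounding window in both epithelium lists lay at the promoter of another gene, Zfp691, 65.5 kb downstream, at rank 1203 in E14.5 and 1728 in P0.5. The window of Slc2a1 held 57, 32, 16 and 14 peaks in the 4 lists. The fiber list had fewer peaks than the epithelium list at E14.5 although it covered more bases, 39.3 kb against 29.1 kb.

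Slc2a3 (chr6:122727809-122742745, minus strand) encodes GLUT3, a high-affinity transporter best known from neurons. Its gene body was covered over 1.83% in E14.5 fiber and 3.82% in E14.5 epithelium, and no base of it lay inside a peak at P0.5 (2.003% in epithelium and 0.573% in fiber with predicted transcripts included). With predicted transcripts the E14.5 values were 3.35% in fiber and 3.86% in epithelium. With only peaks of q below 0.001 kept they were 0.837% and 3.82%, and without the first 2 kb 0.966% and 1.75%. Its best promoter peak ranked at 90.1% in E14.5 fiber and 77.7% in E14.5 epithelium, which places it among the weakest peaks of both lists. The start site itself lay inside a peak in 0 of 4 lists. The 2 transporters thus lay at opposite ends of the 10 genes by coverage in E14.5 fiber.

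Hk1 and Hk2 encode the hexokinases that trap glucose as glucose 6-phosphate. Hk1 (chr10:62268855-62379908, minus strand, 111 kb) was covered over 2.20% in E14.5 epithelium, 4.71% in E14.5 fiber, and, at P0.5, 2.27% in epithelium and 1.67% in fiber, all within 3.05 points of each other. Of its 2 start sites, the upstream (62379908) had no peak within 2 kb in any list, and the downstream (62340421) lay inside a peak in all 4 lists, at 1.12%, 3.37%, 0.874% and 4.22%. The peak at this start site is shared with the antisense gene Hk1os, and ATAC-seq does not tell the strands apart.

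Hk2 (chr6:82725025-82774454, minus strand, 49.4 kb) was covered over 9.39% in E14.5 epithelium, 15.9% in E14.5 fiber, and, at P0.5, 5.24% in epithelium and 5.35% in fiber. The fiber exceeded the epithelium by 6.47 points at E14.5. With equal numbers of peaks the E14.5 values were 11.2% in fiber and 7.59% in epithelium, less than 5 points apart. At P0.5 the values lay within 0.11 points of each other and their order turned when only peaks of q below 0.001 were kept, with 4.24% in fiber and 5.24% in epithelium. Without the first 2 kb the coverage was 5.89%, 12.3%, 2.85% and 3.88% in the 4 lists. Its promoter peak ranked between 0.819% and 1.93% in the 4 lists. The strongest peak inside the gene outside its promoter lay in an intron 23.2 kb from the start site, in all 4 lists. It ranked at 6.26% in E14.5 epithelium, 4.66% in E14.5 fiber, and, at P0.5, 23.6% in epithelium and 11.4% in fiber. This Hk2 peak is shown because in E14.5 fiber no other peak inside a member gene and away from its promoters ranked higher. The Maf consensus TGCTGA lay in the 200 bases around the summit of 24.7% of all E14.5 fiber peaks. In the windows of the 10 genes it lay there for 34 of 169 (20.1%). These are the 200 bases around the summit of the Hk2 peak in E14.5 fiber (GRCm38, plus strand), with the only Maf consensus, TCAGCA or its reverse complement TGCTGA, in capitals:
chr6:82751161-82751360: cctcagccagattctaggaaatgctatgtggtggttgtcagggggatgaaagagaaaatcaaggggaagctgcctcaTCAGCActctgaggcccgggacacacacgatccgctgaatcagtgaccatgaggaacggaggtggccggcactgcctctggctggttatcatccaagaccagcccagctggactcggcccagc

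Pfkl and Pfkp encode the liver and platelet subunits of phosphofructokinase, the committed step of glycolysis. Pfkl (chr10:77986947-78009807, minus strand, 22.9 kb) was covered over 9.42% in E14.5 epithelium, 29.7% in E14.5 fiber, and, at P0.5, 4.15% in epithelium and 7.39% in fiber. The fiber was the higher at both stages, by 20.3 points at E14.5 and 3.24 points at P0.5. Without the first 2 kb the coverage was 3.17%, 24.1%, 0% and 3.56% in the 4 lists, so in P0.5 epithelium it was that of the promoter. In E14.5 fiber a peak of 1918 bp lay in an intron, 2.86 kb from the start site, at 12.3%. The promoter ranked between 3.21% and 6.31%.

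Pfkp (chr13:6579874-6648771, minus strand, 68.9 kb) was covered over 2.83% in E14.5 epithelium, 3.13% in E14.5 fiber, and, at P0.5, 1.68% in epithelium and 0.718% in fiber. These values were 1.11, 0.772, 1.21 and 0.558 times the median of all genes in the 4 lists, and those of the 2 tissues differed by less than 1 point at each stage. Without the first 2 kb the coverage was 0.466%, 0.843%, 0.306% and 0.408%. The P0.5 fiber value was 0.322% when only peaks of q below 0.001 were kept and 1.13% with predicted transcripts included. The promoter of Pfkp nevertheless ranked between 2.78% and 5.69% in the 4 lists, so an open promoter and a largely closed gene body stood side by side. The strongest peak of its window lay at the promoter of a neighbour, Pitrm1, with rank 57 of 58592 in P0.5 epithelium.

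Pkm encodes pyruvate kinase of muscle and of growing cells, and Ldha the lactate dehydrogenase A chain. Pkm (chr9:59656576-59679372, plus strand, 22.8 kb) was covered over 11.0% in E14.5 epithelium, 26.7% in E14.5 fiber, and, at P0.5, 6.20% in epithelium and 5.22% in fiber. Fiber exceeded epithelium by 15.7 points at E14.5. The P0.5 difference was -0.98 points. Without the first 2 kb the coverage was 4.08%, 19.7%, 1.70% and 2.096% in the 4 lists, so the order of the tissues at P0.5 turned. Its 2 start sites lay inside a peak in all 4 lists, and the promoter ranked at 2.05%, 4.05%, 6.64% and 12.6%. Other genes' promoters held the strongest peaks of the window, that of Parp6 at 0.208% in E14.5 fiber and 0.395% in E14.5 epithelium.

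Ldha (chr7:46845804-46855627, plus strand) is the shortest of the 10, at 9.82 kb, so its promoter peak weighs most. It was covered over 16.8% in E14.5 epithelium, 14.7% in E14.5 fiber, and, at P0.5, 9.30% in epithelium and 2.70% in fiber. With predicted transcripts included the P0.5 values were 10.1% in epithelium and 5.66% in fiber. Epithelium was the higher at both stages, which was the case for no other of the 5 genes with the largest coverage in E14.5 fiber. Outside the first 2 kb, 2.29% of the gene lay inside peaks in E14.5 epithelium and 0% in the other 3 lists, so in those lists the coverage was that of the promoter. A peak between genes, at -10.4 kb, ranked at 7.24% in P0.5 epithelium and 9.44% in E14.5 epithelium, against 15.6% in E14.5 fiber and 48.9% in P0.5 fiber. The start site of a second transcript, 46847082, lay inside a peak at E14.5 in both tissues and in neither at P0.5.

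Pdk1 encodes pyruvate dehydrogenase kinase 1, a known target of HIF1α. It (chr2:71873224-71903858, plus strand, 30.6 kb) was covered over 4.37% in E14.5 epithelium, 4.002% in E14.5 fiber, and, at P0.5, 1.24% in epithelium and 1.63% in fiber. Without the first 2 kb the coverage was 1.498%, 0.548%, 0% and 0% in the 4 lists. The promoter ranked at 0.772%, 1.10%, 2.95% and 1.69%, with the summit within 33 bp of the start site. At P0.5 its window held 1 peak in epithelium and 3 in fiber. The promoter was thus the whole of the P0.5 epithelium signal around Pdk1.

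Hif1a (chr12:73901324-73947554, plus strand, 46.2 kb) was covered over 3.14% in E14.5 epithelium, 5.62% in E14.5 fiber, and, at P0.5, 2.91% in epithelium and 2.69% in fiber. Its promoter ranked at 0.874%, 0.749%, 1.16% and 0.697%, within the strongest 2% of every list. These peaks lay at the second of 2 start sites, 73907867. The first, 73901324, had no peak within 2 kb in any list. In P0.5 fiber the Hif1a promoter peak, 1243 bp wide, was the widest peak in the windows of the 10 genes.

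Between tissues at E14.5, 4 of the 10 genes were at least 5 points more covered in fiber, Slc2a1, Hk2, Pfkl and Pkm, against 18.7% of all genes, and 0 were less covered by that much (1.71%). With equal numbers of peaks in every list the count was 3, without Hk2. At P0.5, 0 were more covered in fiber (7.55%) and 1, Ldha, was less covered (3.37%), at -6.61 points, a count that became 0 without the first 2 kb of the genes or with predicted transcripts. Between stages, 3 genes were less covered at P0.5 in epithelium, Slc2a1, Pfkl and Ldha (17.5%), and 5 in fiber, Slc2a1, Hk2, Pfkl, Pkm and Ldha (31%). In epithelium 1 gene, Slc2a1, was left without the first 2 kb of the genes and 2, Slc2a1 and Ldha, with equal numbers of peaks. In fiber 4 were left without the first 2 kb, where Ldha was at 0% in both lists. None was more covered at P0.5, in epithelium (0.261%) or in fiber (0.926%). The gene just outside the 5 point limit was Pkm in epithelium, at -4.79 points, and that just inside it was Pfkl in epithelium, at -5.27 points. Since the list was chosen with these values known, nothing is read from the counts beside the shares of all genes. The lists differ in numbers of peaks, and the 4 comparisons share lists. The 10 genes had a median coverage of 6.88%, 10.1%, 3.53% and 2.69% in the 4 lists. Without Slc2a1 the medians were 4.37%, 5.62%, 2.91% and 2.69%.

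Within 50 kb of the genes the 4 lists held 154, 169, 81 and 86 peaks, over 72.4, 108.2, 31.0 and 26.5 kb. Merged at 10 bp, they made 245 regions, of which 138 (56.3%) came from a single list and 30 (12.2%) from all 4. Over all regions of the genome the shares were 59.5% and 10.9%. Regions seen at E14.5 only numbered 127 (51.8%, against 53.6% of all regions), and those seen at P0.5 only 43 (17.6% in both). Fiber lists alone held 100 (40.8% against 44.4%), and epithelium lists alone 49 (20% against 19.8%). All 4 shares thus lay near those of the genome. By gene, 14 of 17 regions around Pdk1 came from E14.5 alone, of which 10 lay in the gene body of the neighbour Itga6 and 3 in that of Pdk1, and Hif1a had as many from each stage alone, 3 of 12.

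**Figure D5:**
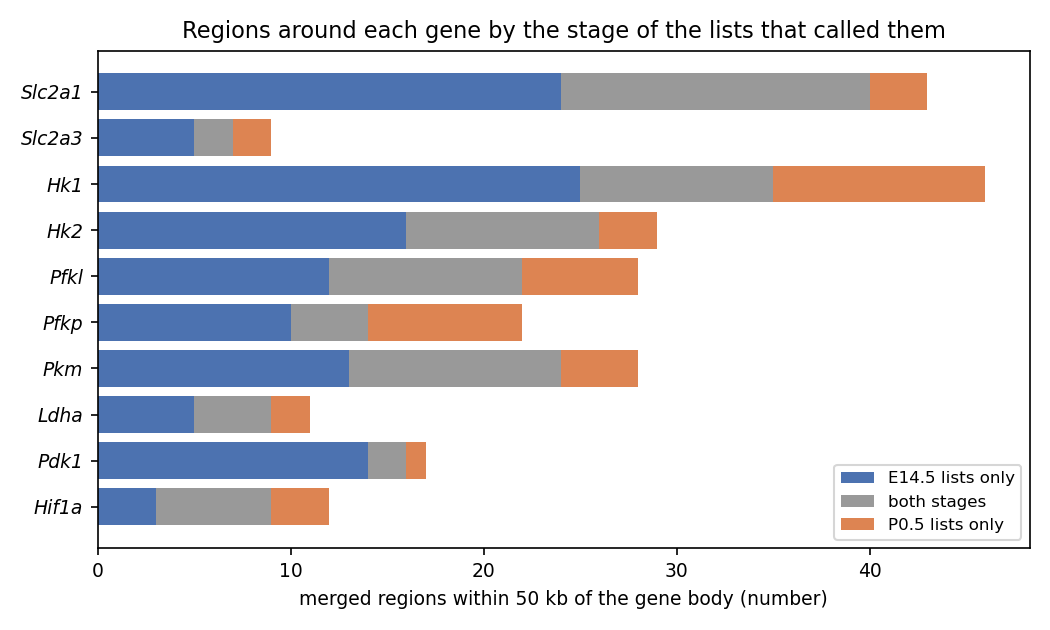
Number of merged regions within 50 kb of each gene (bars), split by whether only E14.5 lists, both stages or only P0.5 lists called them. Regions of E14.5 only outnumber those of P0.5 only at 9 of the 10 genes, and at Hif1a both number 3.

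The other genes of the pathway were taken from a list of 68, of which 68 were found. They had a median coverage of 5.27%, 9.22%, 3.08% and 3.16% in the 4 lists. Between tissues at E14.5, 23 (33.8%, against 18.7% of all genes) were more covered in fiber by at least 5 points and 2 (2.94% against 1.71%), Aldoa and Tpi1, were less covered. At P0.5, 7 were more covered in fiber (10.3% against 7.55%) and 2, Gapdh and Ddit4, less (2.94% against 3.37%). Between stages in fiber, 31 were less covered at P0.5 (45.6% against 31%) and 1, Aldoc, was more covered (1.47% against 0.926%). In epithelium 18 were less covered at P0.5 (26.5% against 17.5%) and 0 more (0.261% of all genes). Tpi1 and Aldoc are named for their counts, after the values were seen. Pgam2, the muscle form of phosphoglycerate mutase, was covered over 7.92% in E14.5 epithelium, 100% in E14.5 fiber, and, at P0.5, 0% in epithelium and 0% in fiber. Gapdh, which oxidises glyceraldehyde 3-phosphate, was covered over 65.2% in E14.5 epithelium, 91.0% in E14.5 fiber, and, at P0.5, 29.3% in epithelium and 17.6% in fiber. Slc16a3, the lactate exporter MCT4, was covered over 37.9%, 51.4%, 11.4% and 22.0% in the same order. Egln2, an oxygen-sensing prolyl hydroxylase that marks HIF1α for degradation, was covered over 19.5%, 57.4%, 17.1% and 20.7%. Of 12 HIF target genes outside the set, Vegfa (67.4%), Adm (68.3%) and Ddit4 (100%) had the highest coverage in E14.5 fiber, where the median of the 12 was 19.9% and the lowest value 4.49%. Hk3, Hkdc1, Gapdhs, Pgk2 and Ldhc were among the genes with no promoter peak in any list, and of these Gapdhs, Pgk2 and Ldhc are known from testis.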

How the data were processed

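ATAC-seq libraries of lens epithelium and fiber (2 per group, 8 in all) were analysed from the authors' 4 pooled peak lists. According to the submitters' processing notes, reads were processed with Trim Galore 0.4.1, Bowtie2 2.3.3.1, SAMtools 1.2, Picard 2.1.1 and MACS2 2.1, and the genome was mm10 (GRCm38). The q value threshold of 0.05 is given in the methods. The authors' deposited fold enrichment is a ratio of reads at the summit to local background. The −log10 p and −log10 q values were made by the authors with MACS2 from the pooled reads before they deposited the lists. The authors' deposited score is a whole number from MACS2 and was not used. Read counts are not part of the lists, and the depth behind a peak is not known from them. 0 columns of values stayed unassigned.

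From these files, peaks were ranked by fold enrichment within a list (equal values share a rank). Gene bodies and 45754 curated transcripts came from RefSeq GRCm38.p6, over 21 chromosomes. A promoter was within 2 kb of a start site, a window was 50 kb on each side, overlap was at least 1 bp, and regions were merged at 10 bp. Coverage differences of at least 5 points and the strongest 10% of a list were counted. Motifs were searched in 250 bases upstream of RefSeq start sites. The sequences of 13 start sites of 9 genes were equal to the genome. The named genes were the 10 genes, the 3 other pathway genes per list with the highest E14.5 fiber coverage, those without a promoter peak, genes whose promoter or body held a described peak, and the 3 genes closest to Slc2a1 by Euclidean distance of coverage over the 4 lists. Cell type markers came from a separate list. Not every gene that this rule allows is reported here. The genes, lists and rules were chosen with earlier results of these data known. Python 3.11.15, pandas 2.3.3, numpy 2.4.6 and matplotlib 3.10.9 were used. On simulated data, coverage was right for 200 of 200 genes, the best promoter peak for 200 of 200, merged regions for 199 of 199 and motifs for 200 of 200. Alternatives were a q value under 0.001, 58592 peaks in every list, predicted transcripts, promoters of 1 kb, ranking by p value, gene bodies without the first 2 kb, flanks of 25 kb and a merge distance of 100 bp.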

Additional observations from a re-analysis of the deposited data

How the results depend on the processing

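No paired analysis was possible because the lists are pooled and hold no values of single libraries, and for the same reason leaving out a replicate was not run. Of the counts given, 74 of 79 values under an alternative stayed within 1.5 times the main count. Of the 160 coverage values of single genes under an alternative, 37 moved by more than 1.5 times, 23 of them without the first 2 kb of the genes. With equal numbers of peaks, Slc2a3 went from 1.83% to 0% in E14.5 fiber and from 3.82% to 1.52% in E14.5 epithelium, Pfkl from 9.42% to 5.19% in E14.5 epithelium, and Hk1 from 4.71% to 2.41% and Pkm from 26.7% to 16.7% in E14.5 fiber. With a q value under 0.001, the P0.5 fiber list had 5 of the 10 genes with a promoter peak in the strongest 10% (8 with all peaks) and 46 peaks in the windows (86 with all peaks). With predicted transcripts included, 0 genes in place of 1 were less covered in P0.5 fiber than in P0.5 epithelium by 5 points. The same count was 0 without the first 2 kb of the gene bodies, and 1 gene in place of 3 was then less covered in P0.5 than in E14.5 epithelium. With equal numbers of peaks, the coverage of Slc2a1 was 87.5% in E14.5 fiber and 50.004% in E14.5 epithelium, with 5.84% and 5.38% at P0.5. The limits are that a list without replicates gives no error, that lists differ in the number and width of peaks, that a wide peak counts once in a count of peaks, and that the depth behind a value is not known from the lists. Cell input also differed between the stages and, at P0.5, between the tissues.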
